A study of Mus musculus with 80 samples.

Results

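The genes described are 9 that mark myelin and the oligodendrocyte lineage: *Mbp*, *Mog*, *Mag*, *Mobp*, *Cnp*, *Cldn11*, *Mal*, *Olig1* and *Olig2*. They were taken by name from a table of 27179 genes; the rule itself used no measured value, although earlier results of these data were known when the genes were chosen. All 9 passed the filter on low counts that left 13016 genes for testing. RNA-seq was performed on 5 brain regions of virgin and primiparous mice to ask whether reproductive experience leaves differences in gene expression after pups are weaned. The animals were age-matched C57BL/6 females (C57BL/6J in the study's methods), an inbred laboratory strain, with no transgene or drug in either group. Each primiparous female was paired with a male at 8 weeks of age for 2 weeks, raised a litter and was harvested, by the sample labels, 3 weeks after weaning, while the study's methods state a longer interval. Virgin females were housed in groups and never met a male. The whole hypothalamus was used, but only the left side of the hippocampus, neocortex, cerebellum and amygdala. Each library came from 1 mouse, and 16 mice gave 80 libraries. The study removed 3 of them, all virgin, as outliers on principal component analysis. The 77 libraries left were 8 virgin and 8 primiparous for hypothalamus and neocortex, and 7 virgin and 8 primiparous for each of the other regions. The libraries of a region were sequenced as a pool, so region and sequencing pool cannot be told apart.

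Oligodendrocytes wrap axons in myelin, a stack of membrane that insulates the axon and speeds conduction, and they go on adding and remodelling myelin in the adult. *Olig1* and *Olig2* encode basic helix-loop-helix transcription factors of the lineage. *Olig2* is needed to specify oligodendrocytes and is already made in their precursors, and *Olig1* promotes maturation and myelin repair. The other 7 genes encode parts of the sheath. Mbp (myelin basic protein) holds the cytoplasmic faces of the membrane together, Mobp (myelin-associated oligodendrocytic basic protein) is another small basic protein of compact myelin, and Mog (myelin oligodendrocyte glycoprotein) sits on the outermost surface. Mag (myelin-associated glycoprotein) faces the axon, Cnp (2',3'-cyclic nucleotide 3' phosphodiesterase) lies in the non-compacted cytoplasmic channels, Cldn11 (claudin 11) forms the tight junctions between wraps, and Mal (myelin and lymphocyte protein) is a proteolipid that sorts cargo to the membrane.

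On the GRCm38 build (mm10), *Olig2* (Entrez Gene 50913) lies at chr16:91225457-91228677 and *Olig1* (50914) at chr16:91269772-91271933, both on the plus strand and 41.1 kb apart. *Mobp* (17433) lies at chr9:120149707-120181484, *Cnp* (12799) at chr11:100574904-100591729 and *Cldn11* (18417) at chr3:31149920-31164324, on the plus strand. *Mog* (17441) at chr17:37010743-37023398, *Mag* (17136) at chr7:30899176-30914873 and *Mal* (17153) at chr2:127633226-127656695 are on the minus strand. The counts cover the exons of each gene. Whether the counting used strand is not given in the sources used here. In GENCODE, *Cnp* shares 154 exon bases with *Dnajc7* on the opposite strand, which averaged 149 CPM (a gene's count scaled to the counted reads of its library), *Olig1* shares 157 with *Gm15966* and *Mobp* shares 79 with *Gm38642*, so a small part of their reads is uncertain.

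The 9 transcripts differ in base composition, and the differences between states below are set beside it. GC content of the longest transcript was 61.1% for *Olig1*, 58.5% for *Olig2*, 57.6% for *Mag*, 54.8% for *Cnp*, 53.3% for *Mobp*, 51.0% for *Mbp*, 50.9% for *Cldn11*, 50% for *Mog* and 48.9% for *Mal*, where the median of the genes tested was 49.9%. *Olig1* was richer in G and C than 97.0% of those genes and *Mal* than 44.7%. The first 90 coding bases of the members with the highest and the lowest values are shown, 5′ to 3′ on the coding strand, with every G and C in capitals (GRCm38, GENCODE transcripts). *Olig1* (chr16:91269877-91269966) has 60 G or C of 90 in this stretch, *Olig2* (chr16:91226400-91226489) 57, *Mal* (chr2:127656044-127656133, minus strand) 56 and *Mog* (chr17:37020717-37023199, minus strand, spliced across an intron) 50.
Olig1: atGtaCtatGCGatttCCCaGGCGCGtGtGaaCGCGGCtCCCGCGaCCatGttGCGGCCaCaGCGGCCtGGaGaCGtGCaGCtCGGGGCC
Olig2: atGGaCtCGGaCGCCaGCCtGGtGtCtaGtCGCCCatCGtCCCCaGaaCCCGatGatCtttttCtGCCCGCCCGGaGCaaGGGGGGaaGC
Mal: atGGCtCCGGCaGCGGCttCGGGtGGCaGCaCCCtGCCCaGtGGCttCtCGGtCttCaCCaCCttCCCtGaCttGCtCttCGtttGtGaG
Mog: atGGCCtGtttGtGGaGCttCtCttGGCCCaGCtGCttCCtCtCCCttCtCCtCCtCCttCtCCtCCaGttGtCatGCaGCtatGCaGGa
The start of *Mal* is nearly as rich in G and C as that of *Olig2*. Over the whole coding part the values were 69.7% for *Olig2*, 68.5% for *Olig1*, 53.2% for *Mal* and 51.7% for *Mog*, and the non-coding part of the *Mal* transcript was at 48.1%.

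Libraries held 7959192 to 37871854 counted reads, with a median of 17623886. *Mbp* had 11570 to 119828 reads in a library and *Olig2*, the member with the fewest, 157 to 1229. None of the genes of the oligodendrocyte lists used below was at 0 in any group. Amygdala libraries of virgin animals 405 and 409 stood apart in these genes: *Mbp* was at 1985 and 2501 CPM there and at 925 to 1782 CPM in the other 13 amygdala libraries. The summed level of 8 striatal genes was 773 and 846 CPM in the same libraries and 495 to 567 CPM in the other 5 virgin amygdala libraries; the part of this in the myelin values was not tested. Animal numbers have 3 digits in 2 virgin and 7 primiparous mice and 4 digits in 6 virgin and 1 primiparous mice. What the numbering stands for is not given, and state and number series largely coincide.

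Across regions, the 7 sheath genes were lowest in the amygdala, while *Olig1* and *Olig2* were lowest in the cerebellum and highest in the hypothalamus. *Mbp* (Entrez Gene 17196, chr18:82475146-82585637, plus strand) had the most reads of the 9. In bulk tissue, fewer oligodendrocytes and less RNA in each of them cannot be told apart. *Mbp* ranged from 2597 to 3428 CPM in the hypothalamus (median 2935), from 2216 to 3891 in the hippocampus (3134), from 2280 to 3163 in the neocortex (2804) and from 2504 to 4754 in the cerebellum (3307). In the amygdala it ranged from 925 to 2501 CPM with a median of 1369, and only the libraries of animals 405 and 409 came near the other regions. Over a model with all 10 groups (edgeR quasi-likelihood test, Benjamini-Hochberg adjustment, virgin and primiparous averaged), all 28 differences between the amygdala and another region were below 0 and passed the test for the 7 sheath genes. They lay between -1.30 and -0.27 on the log2 scale. Of all genes, 36.7% were called lower in the amygdala than in the hypothalamus, 28.7% than in the hippocampus, 30.8% than in the neocortex and 41.4% than in the cerebellum.

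*Olig2* gave another order. It ranged from 38.4 to 52.3 CPM in the hypothalamus (median 43.3), from 25.1 to 48.2 in the amygdala (38.1), from 29.6 to 41.3 in the hippocampus (35.9), from 27.2 to 38.3 in the neocortex (32.3) and from 15.6 to 25.3 in the cerebellum (20.9). *Olig1* ranged from 174 to 257 CPM in the hypothalamus (median 196), from 120 to 210 in the amygdala (157), from 119 to 204 in the neocortex (143), from 123 to 159 in the hippocampus (143) and from 69.0 to 101 in the cerebellum (76.2). No cerebellar library reached the lowest library of another region for *Olig1*, and for *Olig2* the only library of another region that cerebellar libraries reached was the lowest of the amygdala. The cerebellum was lower than each other region in all 8 comparisons of these genes (log2 difference -1.30 to -0.78) and the hypothalamus higher in all 8 (0.16 to 1.30), and all passed the test. Of all genes, 40% were called lower in the cerebellum than in the hypothalamus, 38.5% than in the hippocampus, 39.7% than in the neocortex and 38.8% than in the amygdala. Higher in the hypothalamus were 36.9% against the hippocampus and 38.7% against the neocortex. The amygdala, lowest for the sheath genes, thus came next after the hypothalamus for both transcription factors in mean CPM. For *Olig2* this place rested on animals 405 and 409. The other 13 amygdala libraries, virgin 4486 at 25.1 CPM among them, averaged 35.2 CPM, beside 35.7 in the hippocampus.

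**Figure D1:**
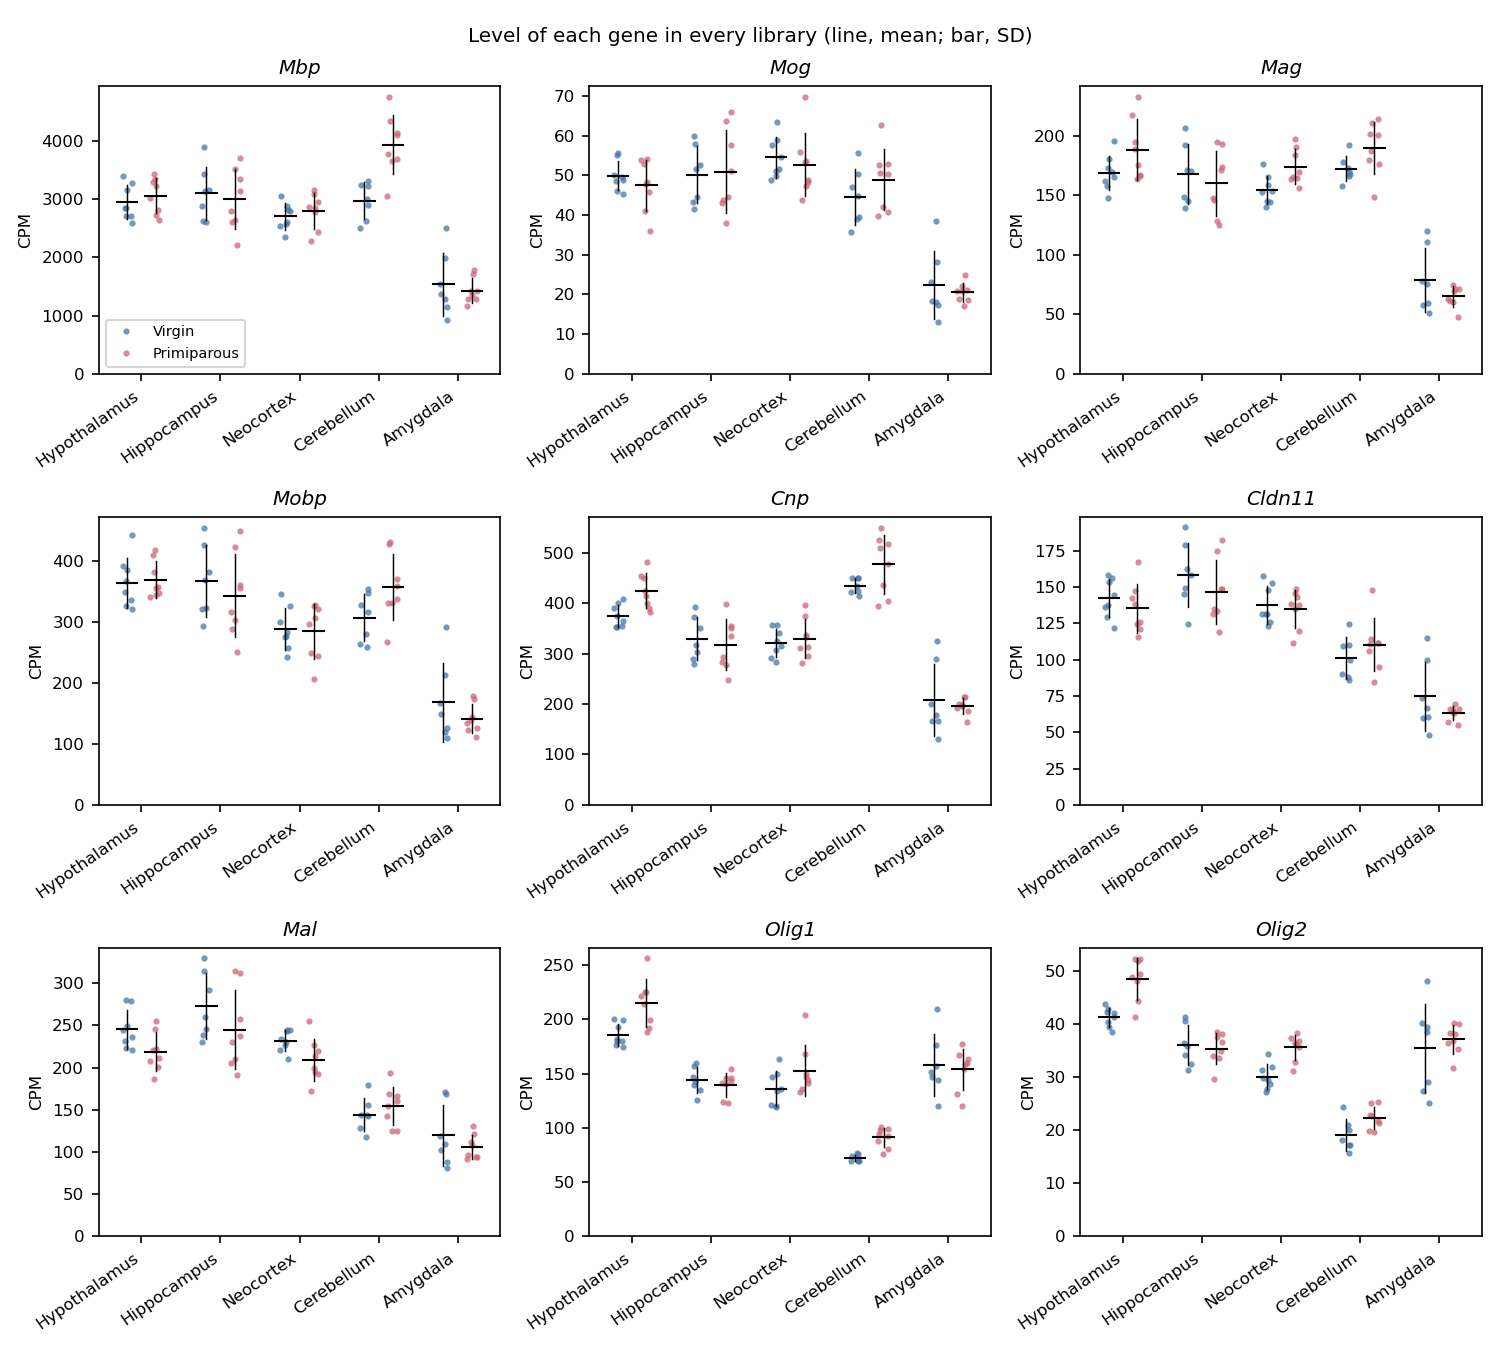
Level of each of the 9 genes (CPM, 1 panel per gene) in every library by brain region, virgin and primiparous shown apart; the horizontal line is the group mean and the bar the SD. The 7 sheath genes are lowest in the amygdala, where *Mbp* has a median of 1369 CPM, and *Olig1* and *Olig2* are lowest in the cerebellum.

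Within the sheath genes the cerebellum was not uniform. *Cnp* was highest there, at 457 ± 48.1 CPM (SD, n = 15), followed by the hypothalamus at 400.0 ± 38.4 (n = 16), and its 4 differences from the other regions all passed the test (log2 difference 0.20 to 1.04). Of all genes, 41.1% were called higher in the cerebellum than in the hypothalamus, 40.2% than in the hippocampus and 40.2% than in the neocortex. *Cldn11* averaged 106 ± 16.6 CPM in the cerebellum against 152 ± 22.1 in the hippocampus (n = 15), 139 ± 15.1 in the hypothalamus and 136 ± 12.6 in the neocortex (n = 16). *Mal* averaged 150 ± 21.4 CPM in the cerebellum against 258 ± 44.5, 232 ± 26.2 and 220 ± 22.6 in the same 3 regions. These 6 differences of *Cldn11* and *Mal* were all below 0 and passed the test (log2 difference -0.93 to -0.39). The directions and calls of this paragraph and of those on the amygdala, *Olig1* and *Olig2* held with each of the 5 other ways of scaling and modelling that were tried.

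For the other pairs of regions many steps in the order were small. Of the 36 steps between neighbouring regions in the order of mean CPM, 21 passed the test, and between 16 and 25 did under the alternatives. *Mbp* in the cerebellum, hippocampus, hypothalamus and neocortex formed 3 steps that did not differ beyond their spread (log2 differences 0.03, 0.17 and 0.01). *Mag* likewise did not differ from step to step among the cerebellum, hypothalamus, neocortex and hippocampus, at means of 182, 178, 164 and 163 CPM. The order of close regions turned with the scaling. *Mobp* averaged 367 CPM in the hypothalamus and 354 in the hippocampus, and the log2 difference was -0.10 with TMM scaling and 0.05 with library totals, where the median of all genes moved by 0.15 between these regions. Counts of members past the test have to be read against a high background, since most genes differ between regions. Between hypothalamus and hippocampus 6 of the 9 passed (73% of all genes did), between hypothalamus and neocortex 5 (77.7%), between hypothalamus and cerebellum 6 (81.1%) and between hippocampus and neocortex 5 (67%). Between hippocampus and cerebellum 7 passed (78.7%) and between neocortex and cerebellum 7 (79.9%). Against the amygdala the numbers were 9 from the hypothalamus (71%), 8 from the hippocampus (58.7%), 9 from the neocortex (62.5%) and 9 from the cerebellum (80.2%). With library totals or limma-trend, fewer members passed between hypothalamus and hippocampus and between hippocampus and neocortex.

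Ratios of 2 members within a library do not depend on scaling between libraries. The number of *Mbp* reads for each *Olig2* read was 125 to 193 in the cerebellum (mean 169), 65.9 to 97.5 in the hippocampus (85.3), 68.3 to 102 in the neocortex (84.5), 50.5 to 80 in the hypothalamus (67.4) and 32.2 to 51.9 in the amygdala (40.6). Every cerebellar library lay above every library of the other regions. The number of *Cnp* reads for each *Mal* read was 2.52 to 3.70 in the cerebellum (mean 3.09), again above all others, where the highest library was at 2.28. The number of *Olig1* reads for each *Olig2* read was 3.82 to 5.19 in the hypothalamus (mean 4.48), 3.53 to 4.44 in the hippocampus (3.98), 3.56 to 6.21 in the neocortex (4.43), 3.04 to 4.52 in the cerebellum (3.97) and 3.59 to 5.39 in the amygdala (4.33). These ranges overlapped for all 5 regions.

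**Figure D2:**
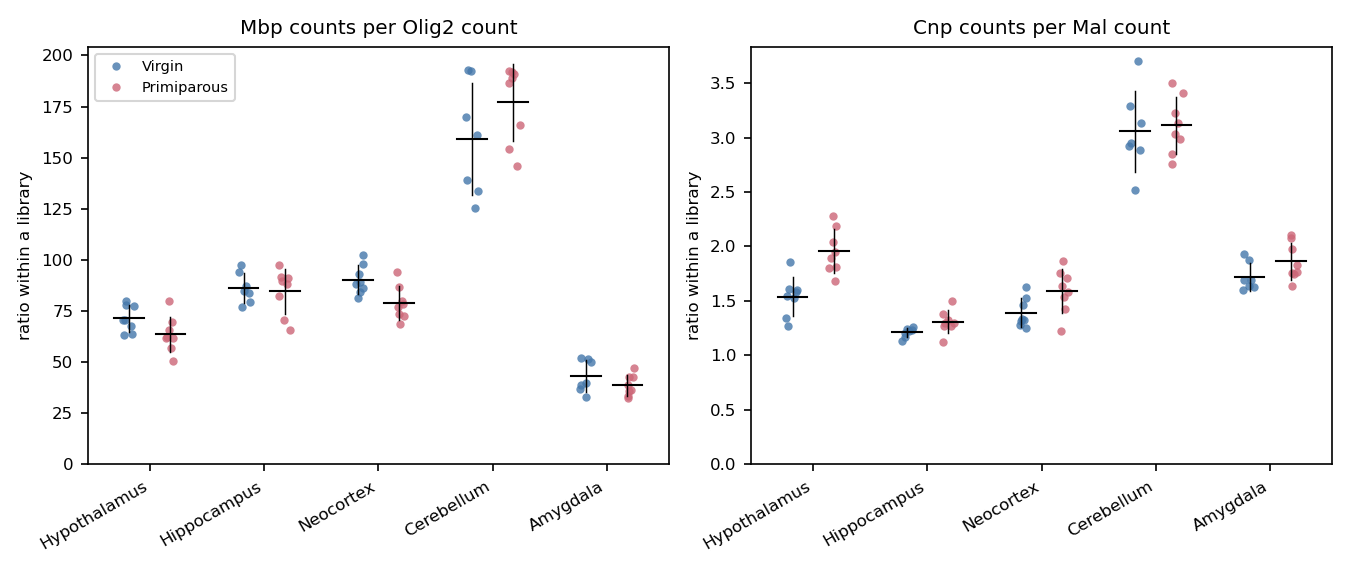
Ratio of *Mbp* to *Olig2* reads (left) and of *Cnp* to *Mal* reads (right) within each library, by region and state; line and bar give the mean and SD. Cerebellar libraries lie above all others in both panels, at 125 to 193 and at 2.52 to 3.70.

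Per kilobase of exon, *Mbp* had the highest level of the 9 in each region, from 175 CPM per kb in the amygdala to 412 in the cerebellum. *Olig2* had the lowest in the hypothalamus (17.8 CPM per kb), hippocampus (14.1), neocortex (13) and cerebellum (8.21), and *Mog* in the amygdala (12.5). Per kilobase of the longest transcript the levels of *Mbp* were 309 and 727 CPM per kb in these regions, and 20 of the 45 levels of a member in a region moved by more than their SD. The first and last places were the same. Those between were not always: *Mobp* moved from the 6th to the 3rd place in the hypothalamus.

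In the hypothalamus, *Olig2*, *Olig1* and *Cnp* were higher and *Mal* was lower in primiparous than in virgin females. These 4 of 9 members passed the test, where 22.6% of all genes did (10.8% higher, 11.8% lower). *Olig2* lay between 38.4 and 43.7 CPM in virgin females (median 41.7) and between 41.4 and 52.3 in primiparous females (49.1). All 8 primiparous libraries were above the virgin mean, with some overlap of the groups. The log2 fold change of primiparous over virgin was 0.21 (SE 0.0588, adjusted p = 0.0138, edgeR).

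*Olig1* lay between 174 and 200.3 CPM in virgin (median 181) and between 188 and 257 in primiparous females (218), a log2 fold change of 0.19 (SE 0.0547, adjusted p = 0.0148, edgeR). *Cnp* lay between 352 and 409 CPM in virgin (median 370) and between 383 and 483 in primiparous females (420), a log2 fold change of 0.16 (SE 0.0486, adjusted p = 0.0217, edgeR). For each of these genes the upper virgin and the lower primiparous libraries overlapped. *Mal* lay between 220 and 280 CPM in virgin (median 240) and between 186 and 255 in primiparous females (216), and 2 of 8 primiparous libraries were above the virgin mean. Its log2 fold change was -0.19 (SE 0.0629, adjusted p = 0.0347, edgeR), and that call was lost when any 1 of 8 libraries was left out (primiparous 414, 415, 421 or 425, virgin 405, 4486, 4490 or 4491) and with limma-voom (adjusted p = 0.0529). The call of *Cnp* was lost without virgin 4489 (adjusted p = 0.0501). The remaining 5 did not pass: *Mag* at a log2 fold change of 0.14 (adjusted p = 0.140, edgeR), *Mbp* at 0.04 (0.700), *Mobp* at -0.0015 (0.988), *Mog* at -0.09 (0.403) and *Cldn11* at -0.10 (0.309). The groups overlapped for all 9 members, where they were apart for 0.884% of all genes.

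**Figure D3:**
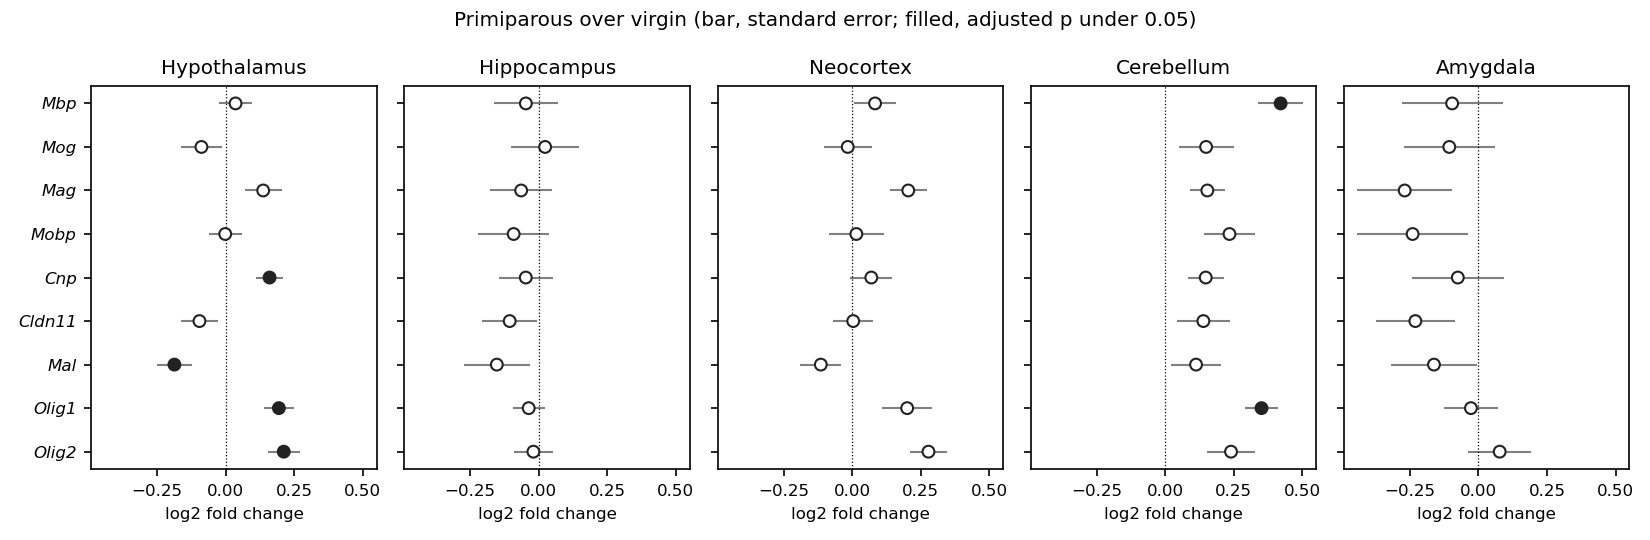
Log2 fold change of primiparous over virgin females for each gene in each of the 5 regions (edgeR), with the standard error as a bar; filled points have an adjusted p under 0.05. In the hypothalamus 3 genes lie above and 1 below 0 with filled points, and in the cerebellum all 9 lie above 0, with *Mbp* and *Olig1* filled.

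The hypothalamic changes followed the GC content of the transcripts. Spearman's rho between GC content and log2 fold change was 0.933 across the 9 members and 0.73 across 12637 genes, given as a description since genes of the same libraries are not independent. The members that rose had transcripts of 54.8 to 61.1% GC, and *Mal*, which fell, has 48.9%. After a correction for gene length and GC content within each library, log2 fold changes of the members lay between -0.17 and 0.04 and none passed the test. *Olig2* and *Cnp* were then at 0.04 and *Olig1* at -0.0008, whereas *Mal* changed little, to -0.17. The order by GC content was still seen in the corrected values (rho 0.80), of which those of *Mobp*, *Mog* and *Cldn11* lay further below 0 than before. Over all genes, the number that passed went from 2939 to 416. A term for the number series of the animals, which largely coincides with state, also left no member past the test. *Olig2* was then at 0.23 (adjusted p = 0.194, edgeR), *Olig1* at 0.18, *Cnp* at 0.10 and *Mal* at -0.10. The number of all genes past the test with this term is not reported here, so the loss is not read as particular to the members. Among animals with 3-digit numbers alone (2 virgin, 7 primiparous) the log2 fold changes lay between -0.20 and 0.24 and none passed, and 1 gene passed in the whole table. Among those with 4-digit numbers (6 virgin, 1 primiparous) they lay between -0.20 and 0.28, values that compare 1 library with the virgin ones and not the states.

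Of the marker lists of other cell types in the hypothalamus, 1 of 12 neuronal genes rose and 3 fell (sums of 5972 to 6319 CPM in virgin and 5663 to 6159 in primiparous libraries), and 1 of 12 astrocyte genes rose and 2 fell (4832 to 5803 and 4692 to 6128). Of 10 endothelial genes 1 rose (276 to 440 and 283 to 409), of 5 choroid plexus genes 1 rose (39.6 to 53.0 and 38.7 to 67.0), and of 12 microglial genes none passed. Their part in the values of the members was not tested.

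**Figure D4:**
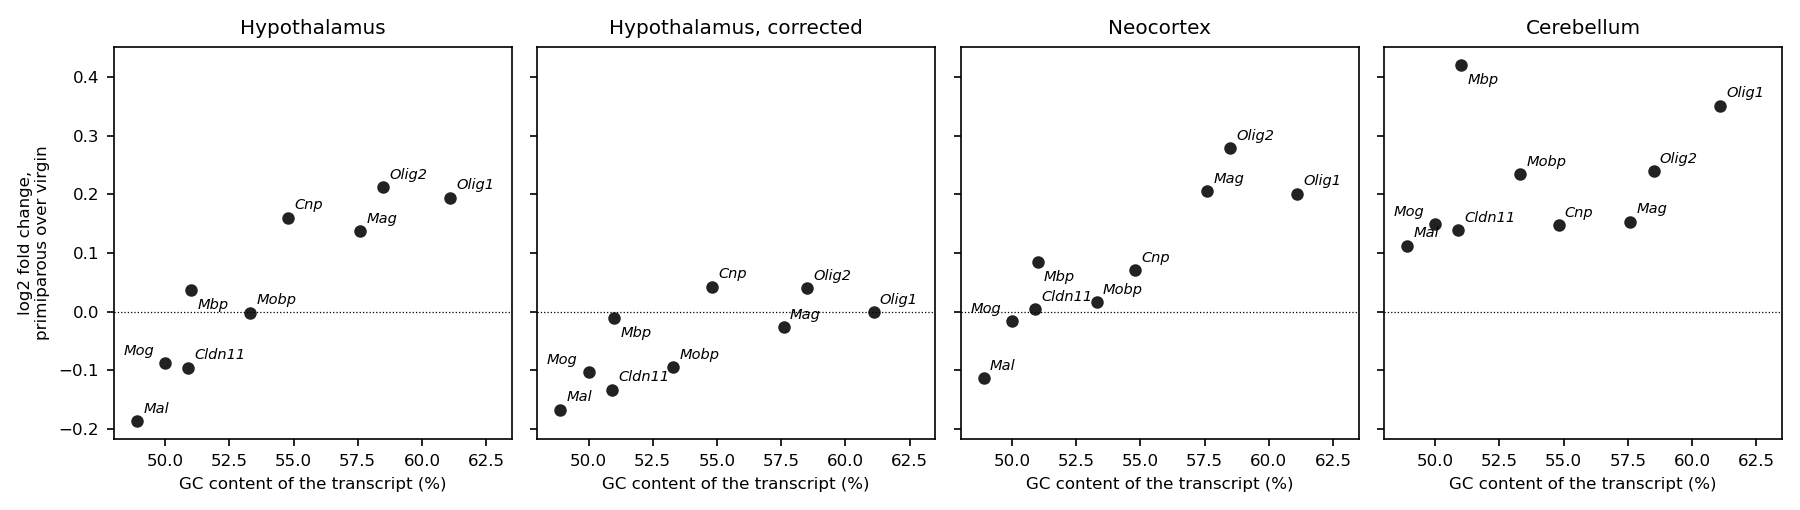
GC content of the longest transcript (percent, horizontal) and log2 fold change of primiparous over virgin (vertical) of the 9 members, 1 point per gene, in the hypothalamus before and after the length and GC correction, the neocortex and the cerebellum. Points rise with GC content in the hypothalamus and neocortex (rho 0.933 and 0.90), and in the cerebellum all lie above 0 (rho 0.617).

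In the cerebellum all 9 members were higher in primiparous females, and *Mbp* and *Olig1* passed the test, where 0.707% of all genes did (0.599% higher). *Mbp* lay between 2504 and 3307 CPM in virgin (median 3008) and between 3053 and 4754 in primiparous females (3941). All 8 primiparous libraries were above the virgin mean, and the groups overlapped at their ends. The log2 fold change was 0.42 (SE 0.0826, adjusted p = 0.0254, edgeR). *Olig1* lay between 69.0 and 76.2 CPM in virgin (median 70.5) and between 76.1 and 101 in primiparous females (93.1), so that the groups met at 1 library each. Its log2 fold change was 0.35 (SE 0.0597, adjusted p = 0.0114, edgeR). Over all genes, the number past the test was 92, and it ranged from 6 without virgin 4486 to 903 without primiparous 4493.

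The other 7 cerebellar fold changes did not pass. They were 0.24 for *Olig2* (adjusted p = 0.15, edgeR), 0.23 for *Mobp* (0.184), 0.15 for *Mag* (0.199), 0.15 for *Cnp* (0.215), 0.15 for *Mog* (0.416), 0.14 for *Cldn11* (0.431) and 0.11 for *Mal* (0.503). *Mobp* passed when primiparous 4493 was left out (log2 fold change 0.29, adjusted p = 0.0341). The call of *Mbp* was lost without primiparous 415 (adjusted p = 0.0515) or virgin 409 (0.0701), 4486 (0.0861) or 4487 (0.0512), whereas *Olig1* passed without any single library (0.00267 to 0.0453). With the length and GC correction *Mbp* was at 0.47 (adjusted p = 0.0214) and *Olig1* at 0.29 (0.0334). Before the correction, rho with GC content was 0.617 across the members, 0.139 across 65 oligodendrocyte genes and -0.0302 across all genes here. With a term for the number series neither *Mbp* nor *Olig1* passed, at 0.37 (adjusted p = 0.728, edgeR) and 0.34 (0.476). That term largely coincides with state, and the number of all genes past the test with it is not reported here. Among the animals with 3-digit numbers all 9 were higher, by 0.21 to 0.57, with no gene of any kind past the test. Among those with 4-digit numbers (5 virgin, 1 primiparous) 2 of 9 were higher and the range was -0.29 to 0.25, with 1 library again standing for the primiparous state.

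Markers of other cell types were examined in the cerebellum as well. Of 12 microglial genes 2 passed, with a median log2 fold change of 0.27, and their summed level was 173 to 211 CPM in virgin and 200.4 to 254 in primiparous libraries. Of 12 astrocyte genes 1 passed (median 0.06), at sums of 6174 to 7285 and 6485 to 7651 CPM. The choroid plexus sum varied from 44.9 to 1323 CPM in virgin and from 52.8 to 3643 in primiparous libraries, and the pituitary sum from 1.98 to 7.52 and from 2.60 to 151 CPM. No choroid plexus or pituitary gene passed, at median log2 fold changes of 0.26 over 5 genes and 4.75 over 3. All 3 pituitary genes had an unadjusted p under 0.05 (edgeR). None of 12 neuronal genes (median log2 fold change -0.02) or of 10 endothelial genes (-0.04) passed either. The part of these markers in the myelin values was not tested.

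In the neocortex, hippocampus and amygdala no gene of the whole table passed the edgeR test (0% each; 1276, 961 and 1544 genes had an unadjusted p under 0.05). *Olig2* in the neocortex lay between 27.2 and 34.3 CPM in virgin (median 29.6) and between 31.1 and 38.3 in primiparous females (36.4). All 8 primiparous libraries were above the virgin mean, but the log2 fold change of 0.28 (SE 0.0665) did not hold over all genes tested (adjusted p = 0.479, edgeR). *Mag*, at 140 to 176 CPM in virgin (median 153) and 156 to 197 in primiparous females (167), was also above the virgin mean in all 8, with a log2 fold change of 0.21 (adjusted p = 0.479, edgeR). *Olig1* was at 0.20 and *Mal* at -0.11. Here too the values followed GC content, with rho 0.90 across the members and 0.737 across all genes. With the length and GC correction *Olig2* was at 0.14, *Mag* at 0.08, *Olig1* at 0.01 and *Mal* at -0.11. In the hippocampus the 9 log2 fold changes lay between -0.15 and 0.02.

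In the amygdala they lay between -0.27 and 0.08, and 8 of 9 were below 0. That direction rested on virgin animals 405 and 409. Without them the virgin mean of all 9 members was below the primiparous mean: *Mbp* averaged 1257 CPM in the other 5 virgin libraries, 1539 in all 7 and 1429 in the 8 primiparous libraries. For *Mag* (64.3 against 65.0 CPM) and *Cldn11* (61.9 against 63.3) these means were close. The 2 libraries were left out after their values were seen. Virgin 4486, which lay far below its group (mean deviation -0.519, *Mbp* at 925 CPM), was kept. Among animals with 3-digit numbers all 9 members were lower in primiparous females there, by -0.88 to -0.23, and 7 passed among 36 genes that did. The 2 virgin animals of that comparison are 405 and 409, the libraries that stood apart above. Among animals with 4-digit numbers the 1 primiparous library was above the 5 virgin ones on average by 0.18 to 0.54 over the 9 members, which compares that library and not the states. Without 405 and 409 no member passed in the amygdala.

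Whether the effect of reproductive state differed between regions was tested for each of the 10 pairs of regions. *Mbp* differed between hypothalamus and cerebellum (-0.39 on the log2 scale, SE 0.108, adjusted p = 0.0148, edgeR), with a fold change of 0.04 in the first and 0.42 in the second; 15.5% of all genes passed in that pair. *Olig1* differed between hippocampus and cerebellum (-0.38, SE 0.0839, adjusted p = 0.0396, edgeR), where 0.169% of all genes passed. The second of these calls was lost with limma-voom and with the animal as a block and the length and GC correction together. No other member passed in these or the other 8 pairs, where the share of all genes was 17.2% for hypothalamus and hippocampus, 18.2% for hypothalamus and amygdala, 1.11% for neocortex and amygdala, 0.415% for cerebellum and amygdala, 0.00768% for neocortex and cerebellum, and 0% in the remaining 3. The fold changes of *Olig2* in hypothalamus, neocortex and cerebellum (0.21, 0.28 and 0.24) were thus not shown to differ.

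A wider set of 65 tested genes (38 listed for myelin, 12 lineage transcription factors and 16 genes of precursors and newly formed oligodendrocytes, members included) gave the setting. In the hypothalamus 19 of the 65 passed, 9 higher and 10 lower, which is 29.2% beside 22.6% of all genes. Of 37 myelin genes 4 rose and 8 fell (median log2 fold change 0.01), of 12 transcription factors 3 rose (0.08), and of 16 precursor genes 2 rose and 2 fell (0.03), where the median of all genes was 0.01. Among genes that passed, the largest rises were of *Nkx6-2*, a homeodomain factor of the lineage (log2 fold change 0.44, adjusted p = 0.00257, edgeR), and *Cspg4*, the NG2 proteoglycan of precursors (0.41, 0.00849). Among genes that passed, the largest falls were of *Aspa*, aspartoacylase (-0.40, 0.0245), and *Lhfpl3*, a precursor marker (-0.39, 0.00776). The genes that rose had transcripts of 52.8 to 64.3% GC and those that fell 38.0 to 48.9%, so the ranges did not meet, and rho with GC content over the 65 was 0.797. After the length and GC correction 0 of the 65 passed. With a term for the number series, which largely coincides with state, 0 passed as well. The same held among animals with 3-digit numbers alone, where 1 gene passed in the whole table. Without these changes, the number was 11 when virgin 4490 or virgin 4491 was left out and 23 when primiparous 418 was. Over all genes it ranged from 2014 to 4119 with 1 library left out.

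In the cerebellum 6 of the 65 passed, all higher, which is 9.23% beside 0.707% of all genes. Besides *Mbp* and *Olig1* they were *Gjb1*, the gap junction protein connexin 32 (log2 fold change 0.37, adjusted p = 0.04995, edgeR), *Ugt8a*, which makes the galactolipids of myelin (0.31, 0.04995), *Qdpr*, dihydropteridine reductase (0.29, 0.0274), and *Plekhb1* (0.33, 0.0496). Of the 56 genes of the set that are not members, 48 were higher. The medians were 0.16 for 37 myelin genes, 0.25 for 12 transcription factors and 0.10 for 16 precursor genes, beside 0.01 for all genes. The number of the 65 past the test was 0 with a term for the number series, 3 with RLE scaling, limma-voom, limma-trend or another filter, and 13 with DESeq2. The numbers of all genes past the test under these settings are not reported here, so these counts have no background beside them. With the length and GC correction 12 of the 65 passed, 11 of them higher, and the number over all genes went from 92 to 435. Without the correction, the number of list genes was 17 without primiparous 4493, the only primiparous animal with a 4-digit number. It was 3 without primiparous 414, 425 or 427, 2 without primiparous 413, and 1 without primiparous 415 or virgin 409, 4486 or 4487. Over all genes the number ranged from 6 to 903 with 1 library left out.

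Across the 77 libraries, the members varied together over all regions once the mean of each region and state was taken out. The correlation of each gene's residual with the mean residual of the other 8 was 0.926 for *Cnp*, 0.900 for *Mbp*, 0.886 for *Cldn11*, 0.860 for *Mag*, 0.830 for *Mal*, 0.802 for *Mog* and 0.767 for *Mobp*, and lower for *Olig2* (0.611) and *Olig1* (0.608). The points share a library and its depth, so these values are a description. The median over the 21 pairs of sheath genes was 0.919 in the hippocampus, 0.904 in the amygdala, 0.685 in the cerebellum, 0.516 in the neocortex and 0.449 in the hypothalamus. Single members departed from this within a region: *Olig2* in the hypothalamus was at -0.142, *Mobp* in the neocortex at 0.0564 and *Mal* in the hypothalamus at 0.271. Among the 8 other genes most like the members were *Trf* (transferrin, r = 0.886), *Bcas1* (0.871), *Plekhb1* (0.861), *Fa2h* (fatty acid 2-hydroxylase, 0.825), *Tmbim1* (0.807), *Prr18* (0.793) and *Sept4* (0.791).

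**Figure D5:**
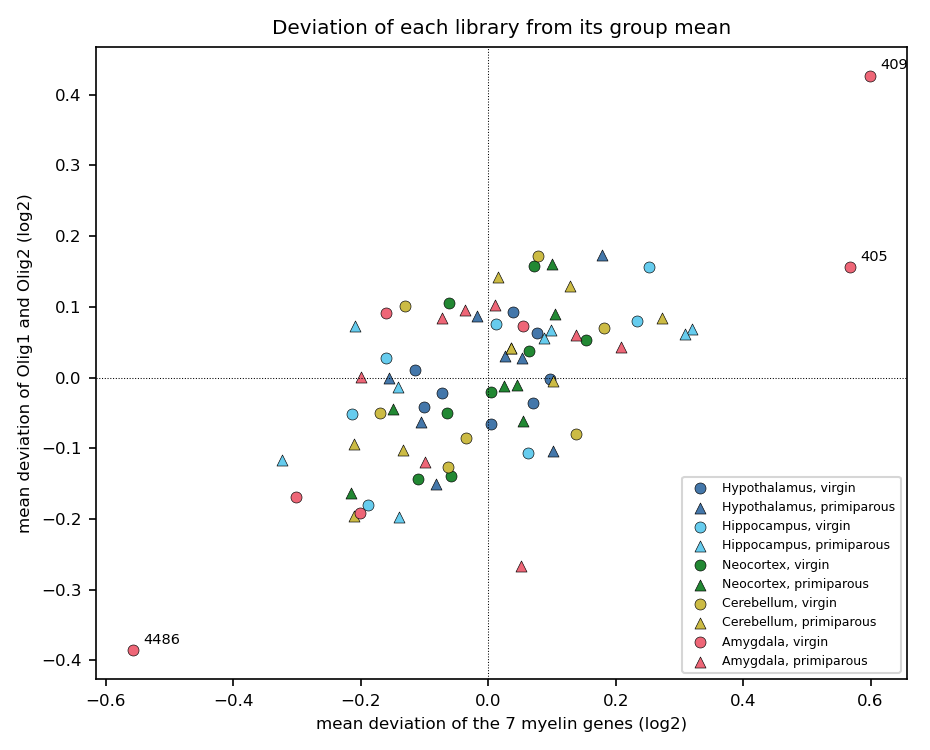
Deviation of each of the 77 libraries from the mean of its region and state (log2), as the mean of the 7 sheath genes (horizontal) and of *Olig1* and *Olig2* (vertical). The amygdala libraries of virgin animals 405 and 409 lie far to the right and that of virgin 4486 far to the left, with mean deviations over the 9 genes of 0.476, 0.561 and -0.519.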

How the data were processed

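Polyadenylated RNA was sequenced from 5 brain regions of 16 mice, 14 of which have 5 libraries each in the count table. The study removed 3 labelled virgin libraries (hippocampus, cerebellum and amygdala) as outliers on principal component analysis, and they are not analysed here. Per the labels and the study's methods, the authors aligned single-end reads with HISAT2 to mm10 and counted reads that map once per gene with featureCounts and its inbuilt annotation; versions are not given in the sources used here. The deposited count table holds these raw counts. The deposited log2 table, described as log2 of CPM plus 4, matched log2 of counts over size factors plus 4 (largest difference 5.5e-05) and served as an alternative only.

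The authors' filter was kept, which asks for 5 CPM or more in 8 or more libraries (13016 of 27179 genes). Counts were fitted with edgeR's quasi-likelihood test (TMM scaling, robust dispersion) per region for state, in 1 model of 10 groups for region, and in 4-group models for the difference in state effect; p-values were adjusted over all genes by Benjamini and Hochberg, with a threshold of 0.05. CPM in the text are counts scaled to the counted reads of the library. Log2 fold changes are primiparous over virgin. Alternatives were RLE scaling, library totals, limma-voom, limma-trend, DESeq2, other filters, the animal number series, a correction for length and GC content, the animal as a block, and each library left out in turn. The length and GC correction used GENCODE M21 transcripts and had values for 12632 genes (97.05%). Gene symbols came from the deposited table (11939) or RefSeq (965). Simulated data were used to check the hypothalamic fits of state (edgeR, with and without the length and GC correction, and limma-voom). They were also used for the difference in state effect between hypothalamus and cerebellum (4 groups, and the animal as a block). The other fits, among them the model of 10 groups, were not checked in this way.

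Likeness was Pearson's r of residuals of log2(CPM + 4) from the means of region and state. All 9 members are named in each comparison, along with the 2 list genes that rose and the 2 that fell most (in the cerebellum, the 2 largest and the 2 smallest changes) and the 8 genes most like the members, 1 of which is not reported here; *Plekhb1* in the cerebellum was named after its value was seen. The members and lists were chosen with earlier results of these data known. Animal numbers in the titles tie the regions of a mouse together, while virgin and primiparous are different mice; after removal of group means, the median correlation between regions of the same mouse was -0.0132 to 0.104, against -0.0107 to 0.00673 between mice. Tools were R 4.3.3, edgeR 4.0.16, limma 3.58.1, DESeq2 1.42.0, Python 3.11.15, numpy 2.4.6, pandas 2.3.3, scipy 1.17.1 and matplotlib 3.10.9. Counts have no molecular identifiers, so depth covers counting error only. No column of other samples was present.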

Additional observations from a re-analysis of the deposited data

Results flagged for a closer look

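The effect of reproductive state differed between regions for 2 members by a test of the difference itself (edgeR). For *Mbp* the log2 difference of the effect, hypothalamus minus cerebellum, was -0.3924, and for *Olig1*, hippocampus minus cerebellum, it was -0.3844. The *Olig1* call was lost with limma-voom, and with the animal as a block and the length and GC correction together. The cerebellar change of *Mbp* did not pass with a term for the number series or without certain single libraries. A single library lay far from its group in 2 of the 90 sets of libraries examined, where chance gives about 1 in 20. Both belong to primiparous mouse 427. Its neocortex had *Mog* at 69.6 CPM, with the next primiparous library at 55.9 CPM and the highest virgin library at 63.4 CPM, and *Mobp* there was at 206 CPM, the lowest of the 16 neocortex libraries. Its cerebellum had *Cldn11* at 148.0 CPM, with the next primiparous library at 114 CPM and the highest virgin library at 125 CPM, and a sum of pituitary genes of 151 CPM, the highest of the 15 cerebellar libraries.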

How the results depend on the processing

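The fold changes followed singly were those of all 9 members in the hypothalamus and cerebellum and of *Mag*, *Olig1* and *Olig2* in the neocortex. With 1 library left out, 304 of 327 of these values kept direction and call, 13 lost their call, 1 gained one and 9 turned, all of them *Mobp* in the hypothalamus (-0.0295 to 0.0392). The number of members past the test ranged from 3 to 4 in the hypothalamus and from 1 to 3 in the cerebellum, and stayed 0 in the other regions. List genes past the test ranged from 11 to 23 in the hypothalamus (without virgin 4490 and primiparous 418), where all genes ranged from 2014 to 4119. In the cerebellum they ranged from 1 to 17 (without primiparous 415, as with 3 others, and primiparous 4493), where all genes ranged from 6 to 903. Under the other alternatives 189 of 231 of the fold changes followed singly were the same, 26 lost their call and 16 turned.

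In the hypothalamus 0 members and 0 list genes passed with the number series as a term, with the length and GC correction, with both, or among 3-digit animals, and 1 member and 8 list genes differed among 4-digit animals, where 2282 genes did and the primiparous arm is 1 library, so that the states are not compared. Fold changes that turned there were *Mbp* -0.0104, *Mag* -0.0264 and *Olig1* -0.0008 (length and GC), *Mbp* -0.015 and *Mag* -0.0849 (with the series), *Mbp* -0.10 (3-digit), *Mag* -0.0130 and *Mobp* 0.24 (4-digit), and *Mobp* 0.0038 (limma-trend). In the cerebellum 0 members and 0 list genes passed with the series, the series and correction, or either number series alone. List genes numbered 3 with RLE, limma-voom, limma-trend, no filter or filterByExpr, 13 with DESeq2 and 12 with the correction, where 435 of all genes passed. Among 4-digit animals *Mbp* -0.0159, *Mog* -0.23, *Mobp* -0.29, *Cnp* -0.17, *Cldn11* -0.0133, *Mal* -0.0563 and *Olig2* -0.0209 turned. In the amygdala 7 members and 15 list genes passed among 3-digit animals, where 36 of all genes did, and 1 list gene with the series. With the length and GC correction, members outside those followed singly also turned: *Cnp* -0.0202, *Mobp* -0.0347 and *Cldn11* -0.0376 in the neocortex, *Olig1* 0.0185 and *Olig2* 0.0309 in the hippocampus, and *Olig1* 0.12 in the amygdala. The cause was not tested. The series restrictions, library totals and the joint corrections were chosen after seeing the data.

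Between regions, 3 members differed for hypothalamus and hippocampus with library totals or limma-trend, and 3 or 2 for hippocampus and neocortex. State effects differed for 1 member between hypothalamus and hippocampus with RLE and for 0 between hippocampus and cerebellum with limma-voom. With the animal as a replicate block, 21 of 36 neighbouring steps passed (16 with library totals, 17 with limma-trend, 25 with block and correction) and 4 members differed between hippocampus and neocortex; with block and correction, state effects differed for 2 members between hypothalamus and cerebellum and for 0 between hippocampus and cerebellum. The block alone ended no other count. The shares of all genes under the alternatives of this paragraph are not reported here. Virgin and primiparous mice share no numbers, so no paired test of state was possible within a region. Mean CPM on TMM sizes moved in 0 of 45 cases by more than the replicate SD. The lowest counts were those of *Olig2*, from 157 reads.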
